A study of Homo sapiens with 24 samples.

Results

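The genes described here were 9 transcripts through which islet cells sense glucose and process insulin: the glucose transporters SLC2A1 and SLC2A2, the KATP channel subunits KCNJ11 and ABCC8, the glucose-6-phosphatase G6PC2, the prohormone convertases PCSK1 and PCSK2, carboxypeptidase E (CPE) and the granule zinc transporter SLC30A8. They were found by their gene identifier in the 6 deposited lists of m6A peaks, which gave 77 of 228472 peaks on 9 of 27089 genes with a peak. m6A-seq uses an antibody to N6-methyladenosine (m6A) to pull methylated RNA fragments down, and compares the reads of that fraction (IP) with those of the starting fragments (input). A methylated stretch then shows as a peak of IP over input.

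A beta cell takes up glucose through transporters of the SLC2A family, and its metabolism raises ATP, which closes the KATP channel, depolarizes the cell and triggers insulin release. Insulin itself is cut from proinsulin by PCSK1 and PCSK2, trimmed by CPE and packed with zinc in secretory granules. m6A is laid down mostly within a short sequence called DRACH, often near the stop codon and in the 3UTR, and is removed by the demethylases ALKBH5 and FTO.

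All cells came from MEL1, a human embryonic stem cell line that the study's methods give as MEL1 INS GFP/W, with GFP at 1 allele of the insulin gene. Batch 1 followed the undifferentiated cells (hPSC) through definitive endoderm (DE) and pancreatic progenitors (PP) to human islet-like organoids (hILO), profiled from mRNA with a SYSY antibody. In batch 2 wild-type PP (WT PP) were compared with PP from a line whose ALKBH5 gene had been disrupted with CRISPR-Cpf1 in picked colonies (A5-KO PP), from total RNA with a Millipore antibody, rRNA-depleted input and a SMARTer library kit. For a population there were 2 IP and 2 input libraries, 24 in all, but 1 peak list with pooled counts. No spread between libraries could therefore be computed, every comparison is without a replicate check, and the errors given are counting errors only, which PCR copies make too small. PP and WT PP share a stage name but differ in batch, RNA, antibody and kit, and these cannot be told apart.

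The input reads inside peaks ranged from 6987612 in PP to 28463998 in hILO, and the IP reads from 30723097 in DE to 79822815 in hPSC. WT PP had no input read in 11.5% of its peaks and A5-KO PP in 24.6%, against at most 0.183% in the stages. Most stage markers had a peak at their own stage. In hPSC 4 of 5 pluripotency genes had one (60.2% of all protein-coding genes), and in DE 5 of 5 endoderm genes (57%). Progenitor genes with a peak numbered 4 of 5 in PP (52.2%) and 5 of 5 in both WT PP (62.8%) and A5-KO PP (69.7%). Peaks were not limited to a marker's own stage, since 3 of 5 pluripotency genes had one in DE and 3 of 5 endoderm genes in WT PP and A5-KO PP alike. In hILO 6 of 7 islet endocrine markers had a peak, INS included, but so had 5 of 5 liver, 2 of 2 gut and 4 of 4 mesenchyme markers. Neural markers with an hILO peak numbered 1 of 3 and exocrine markers 0 of 3, where 57.7% of all protein-coding genes had one. ALKBH5 had 4 peaks with 289 input reads in WT PP, and 5 peaks with 1 input read and 592 IP reads in A5-KO PP. These reads are no check of the knockout. Of peaks shared by these lists with at least 50 input reads in WT PP, 12% had an input level at least 100-fold lower in A5-KO PP.

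Sequence around DRACH sites is shown for genes with a recurrent or deep peak and for the single peak of G6PC2, but not for ABCC8 or SLC30A8, as 29 nt of hg38 on the transcript strand with the motif in capitals. DRACH reads A, G or T, then A or G, then A and C, then A, C or T, and GGAC followed by A, C or T is one form of it. The first site lay 160 nt past the stop codon of SLC2A1, in the 3UTR, at chr1:42926879-42926883, inside peaks of 5 lists. The next pair lay further along the same 3UTR, at chr1:42926652-42926656 and chr1:42926637-42926641, again inside peaks of 5 lists. The KCNJ11 site lay in the coding sequence (CDS), 187 nt before the stop codon, at chr11:17387104-17387108, inside peaks of 4 lists. The PCSK1 site lay 22 nt before the stop codon at chr5:96393021-96393025 and was covered in hPSC and in hILO. The PCSK2 site lay 155 nt before the stop codon at chr20:17481913-17481917, in the hILO peak with the most IP reads of these genes in that list. The CPE site lay in the 5UTR at chr4:165379071-165379075, within the single region that had a peak in every list, though the site itself was covered in 4 lists and not in hPSC or DE. The SLC2A2 site lay 8 nt past the stop codon at chr3:170997893-170997897, in the peak with the most input reads of all 77, which held no GGAC. The G6PC2 site lay in the CDS at chr2:168908009-168908013, in the gene's single peak.
SLC2A1 3UTR, first: gaagaatattcaGGACTtaacggctccag
SLC2A1 3UTR, second: atctgtagggctGGACCtatgtcctaagg
SLC2A1 3UTR, further along: cctatgtcctaaGGACAcactaatcgaac
KCNJ11 CDS: acgttactctgtGGACTactccaagtttg
PCSK1 CDS: tcaagctctggtGGACAttctgaatgagg
PCSK2 CDS: tgctgaaggagtGGACCctgatgctgcat
CPE 5UTR: cagtgcgcgggcTGACActcattcagccg
SLC2A2 3UTR: tgtgtaaaaaaaAAACCctgctttttgac
G6PC2 CDS: catccattccccTAACTgtggttgctttc

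A match to the motif is a description of the sequence, and the assay does not resolve the methylated base. Of the 77 peaks, 68 held DRACH on the transcript strand, 51 held GGAC and 24 held GGACT. The share followed the length of the peak. Of peaks of 50 to 100 nt, 10 of 19 held DRACH, against 74% of all peaks of that length. Of longer ones up to 200 nt 27 of 27 did, against 96.8% of all peaks, and above 200 nt 31 of 31 did, against 99.8%.

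To see at which stage these transcripts carried called m6A peaks, the members were counted in each list. In hPSC 5 of 9 genes had a peak, where 60.2% of all protein-coding genes did. DE had 2 (57% of all), PP had 3 (52.2%), and hILO had 9 of 9 (57.7%). In batch 2, WT PP had 4 (62.8%) and A5-KO PP had 7 (69.7%). These counts moved with the threshold: 5 of 9 genes kept an hILO peak with an IP over input of at least 3, and at p below 1e-05, which the study's methods name but the lists do not apply, WT PP had 2 and A5-KO PP 4. hPSC held 12 peaks on the 9 genes, DE and PP 5 each and hILO 26, while WT PP held 13 and A5-KO PP 16. SLC2A2, ABCC8, G6PC2 and PCSK2 had a peak in hILO and in no earlier stage, as 6.27% of the protein-coding genes with an hILO peak did. SLC2A1 and CPE had a peak in all 6 lists, as 37.7% of protein-coding genes did. At p below 1e-05, however, SLC2A1 kept none in WT PP or A5-KO PP, and CPE none in hPSC or WT PP. A gene without a listed peak has no value in that list, since reads outside peaks were not analysed here, so absent methylation, absent transcript and missing depth cannot be told apart. Nor can fewer cells of a type and less RNA per cell. hILO also had the most input reads in peaks, and 5 of 5 liver markers had a peak there against 1 of 5 in PP, while gut (2 of 2) and mesenchyme (4 of 4) markers had as many in PP as in hILO. The part of depth and of these cells in the counts was not tested.

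**Figure D1:**
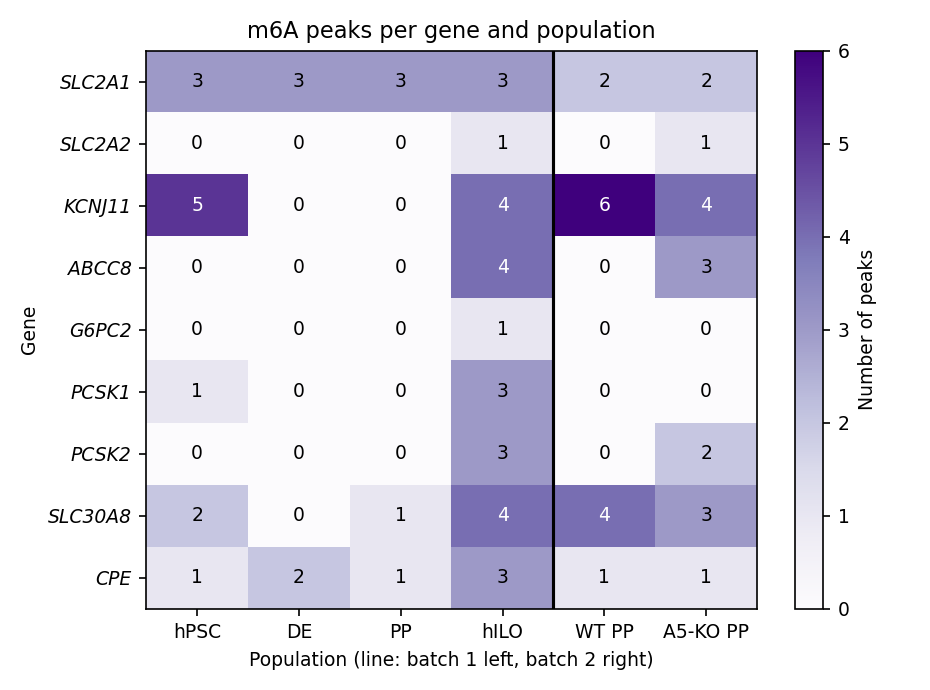
Number of m6A peaks on each of the 9 genes (rows) in each population (columns), with batch 1 left of the black line and batch 2 right of it. Each of the 9 genes had a peak in hILO, while KCNJ11 had 5 in hPSC, none in DE or PP, and 6 in WT PP.

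The peaks lay in different parts of the transcripts. On the longest coding isoform, 11 peaks had their midpoint in the 5UTR, 21 in the CDS and 30 in the 3UTR, while the midpoint of 15 fell outside its exons. Of these 15, 7 had no base on the isoform and 8 had at least 1. Of the 62 peaks with their midpoint on it, 17.7% were thus in the 5UTR, 33.9% in the CDS and 48.4% in the 3UTR. Over all peaks placed in the same way, the lists ranged from 3.40% to 6.60% in the 5UTR, from 51.9% to 59.1% in the CDS and from 35.1% to 42.1% in the 3UTR. Within 200 nt of the stop codon lay 16 of the 62 (25.8%), where the lists had 18.8% to 22.7%. These peaks come from 9 genes and overlap between lists, so the shares are a description. None overlapped an exon of another gene. When peaks that overlap between lists were merged, 39 regions remained, of which 27 came from 1 list, 7 from at least 4 lists and 1, at the 5' end of CPE, from all 6. Over all protein-coding genes 50.1% of the regions merged in this way came from 1 list, 25.3% from at least 4 and 11.2% from all 6.

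**Figure D2:**
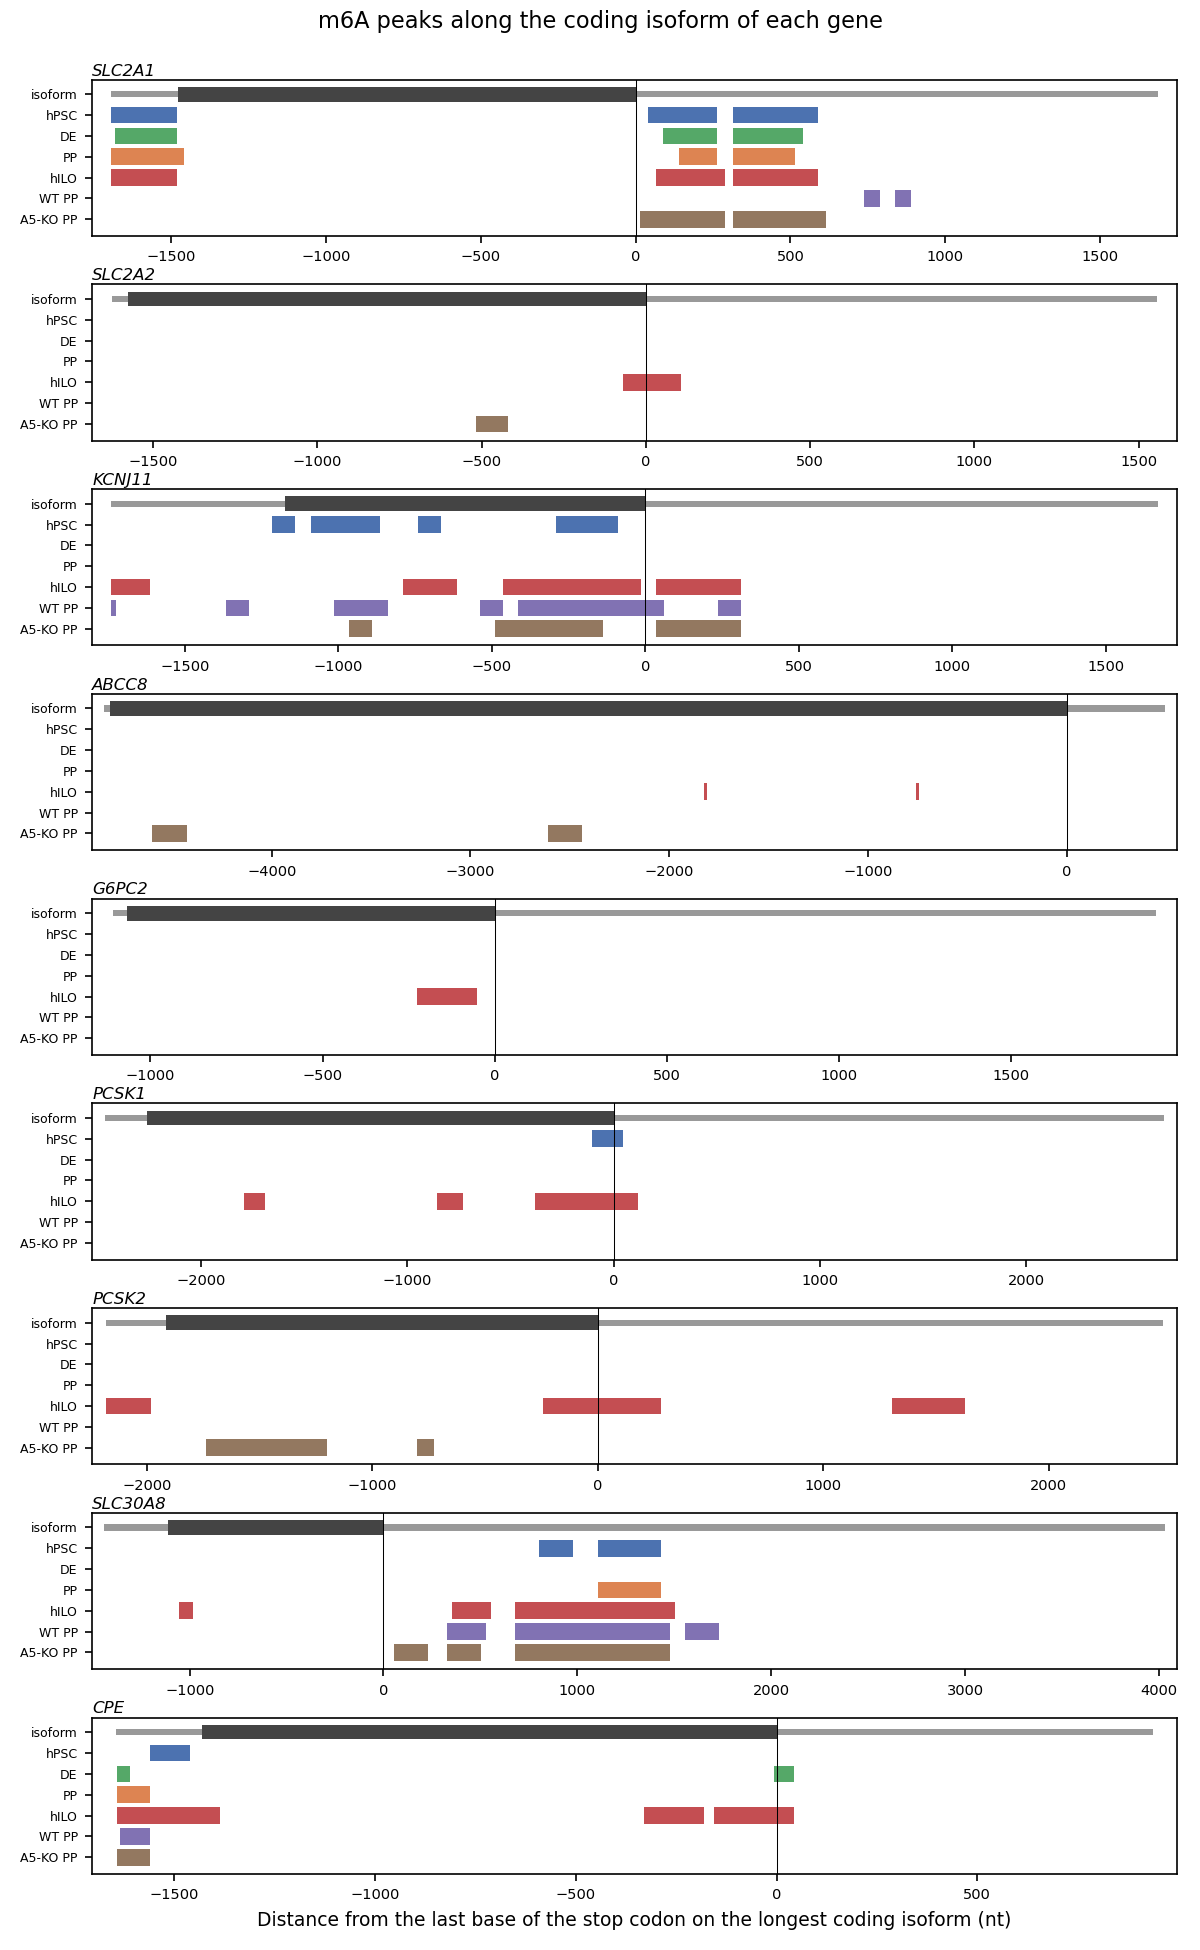
Peaks of each population along the longest coding isoform of each gene, by distance in nt from the last base of the stop codon (vertical line at 0), with the CDS drawn thick and the UTRs thin. Each bar runs from the first to the last base of a peak on the isoform, widened to 15 nt where shorter, and peaks with no base on it are not drawn. SLC2A1 shows overlapping 5UTR and 3UTR positions from hPSC to hILO, while PCSK2 shows separate positions in hILO and A5-KO PP.

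SLC2A1 (GLUT1), the widespread glucose transporter that supplies most cells at rest, held 16 peaks. In each of the 4 stages 3 regions were called, none of which held a peak in WT PP. The 5UTR region, chr1:42951974-42958893 with all lists merged, held 507 input and 5647 IP reads in hPSC, 118 and 372 in DE, 145 and 1451 in PP, and 1291 and 3444 in hILO. Its log2 enrichment, the authors' estimate of IP over input, was 1.93 ± 0.07 (counting error) in hPSC and 1.90 ± 0.15 in DE. It was 2.42 ± 0.13 in PP and 1.41 ± 0.05 in hILO. PP had the highest value and hILO the lowest, while hPSC and DE lay within their counting errors. The stretches were not the same, since the PP peak ran over 3 exons (300 nt, of which the DE peak covered 66.7%). Of it, 235 nt lay on the first exon of the coding isoform, up to the first bases of the CDS, and the rest outside the isoform. The peaks of the other stages lay on 1 exon (200 to 239 nt).

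The region of SLC2A1 just past the stop codon, chr1:42926753-42927027 with all lists merged, ran the other way between DE and PP. It held 737 input and 5477 IP reads in hPSC, 318 and 686 in DE, 352 and 989 in PP, and 1632 and 2347 in hILO. The log2 enrichment was 1.43 ± 0.06 in hPSC and 1.47 ± 0.10 in DE, against 1.08 ± 0.09 in PP and 0.62 ± 0.05 in hILO. The hILO value stood at the 0.725th percentile of that list, close to the IP over input of 1.5 that the study's methods set as the minimum. The region further along, chr1:42926428-42926727, held 745 input and 8408 IP reads in hPSC, 360 and 1271 in DE, 377 and 1897 in PP, and 237 and 482 in hILO. It gave 1.99 ± 0.06 in hPSC and 2.15 ± 0.09 in DE, against 1.62 ± 0.08 in PP and 1.05 ± 0.11 in hILO. Both 3UTR regions were therefore lowest in hILO.

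These regions were also the 3 shared pairs at each step from stage to stage, a pair being shared when the other list covered more than 50% of the exonic length. From hPSC to DE 3 of 5 DE peaks were shared, where 64.7% of all DE peaks were, and from DE to PP 3 of 5, where 57% were. From PP to hILO 3 of the 26 hILO peaks were shared, where 45.6% of all hILO peaks were. In the reverse direction DE recovered 3 of 12 hPSC peaks (52.5% of all), PP recovered 3 of 5 from DE (46.7%) and hILO recovered 5 of 5 from PP (60.5%). The log2 differences of DE minus hPSC were -0.03 ± 0.17 in the 5UTR, 0.04 ± 0.11 near the stop codon and 0.16 ± 0.10 downstream, each within the 95% counting range. None reached 1, as 4.45% of all pairs did upwards and 6.9% downwards. PP minus DE gave 0.52 ± 0.20, -0.40 ± 0.13 and -0.53 ± 0.12, again short of 1 (7.35% of all pairs higher and 8.21% lower by that much), and hILO minus PP gave -1.01 ± 0.13, -0.46 ± 0.10 and -0.56 ± 0.14, each outside that range. Both 5UTR differences that involve PP set its longer peak over 3 exons against a shorter one. Among all pairs shared by hILO and PP, 13.2% were lower and 4.11% higher in hILO by at least 1 and the median difference was -0.12, so the 5UTR pair lies at a size that other genes also reach. With plain count ratios, each less its list median, the hILO minus PP difference near the stop codon was -0.18, within the range, and the DE minus hPSC difference downstream was 0.26, beyond it. PP minus DE was then 0.82 in the 5UTR and -0.33 downstream.

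The neighbouring 3UTR regions of SLC2A1 differed in input as well as in IP. Per kb of peak, input near the stop codon was 1.21 times that downstream in hPSC, 1.14 times in DE and 1.49 times in PP, but 8.42 times in hILO. In reads per kb the hILO input was 7253 near the stop codon and 862 downstream. An input ratio of at least 4 held for 41% of neighbouring pairs less than 100 nt apart in hILO and for 36.7% in hPSC. The share with a ratio as large as 8.42 was not counted.

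**Figure D3:**
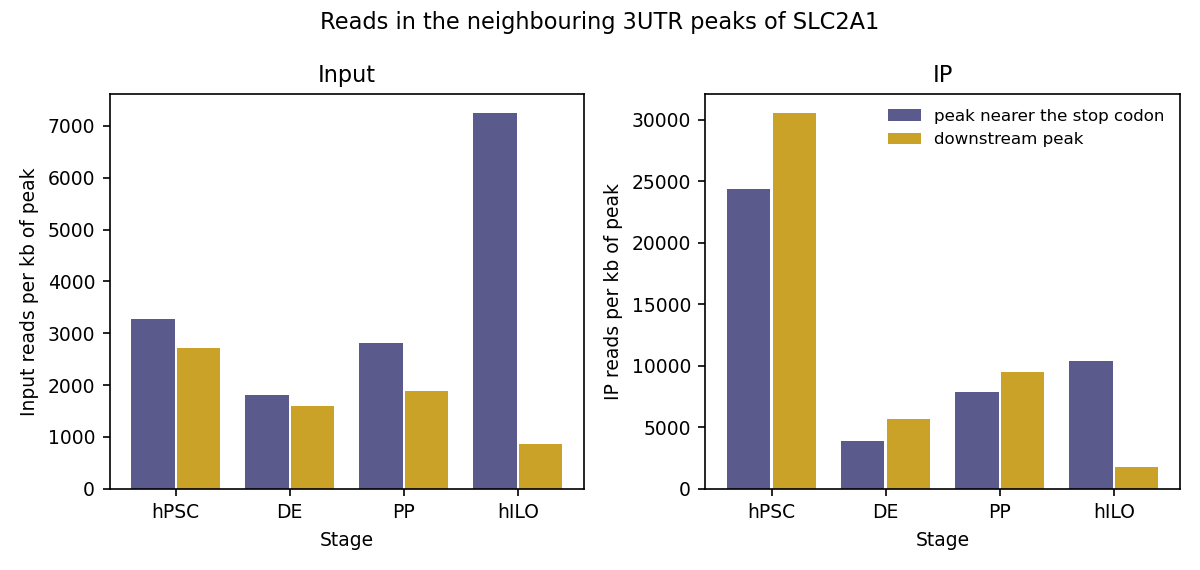
Input reads (left) and IP reads (right) per kb of peak in the 2 neighbouring 3UTR peaks of SLC2A1 at the 4 stages, each bar being the pooled count of 1 peak list, without a replicate error. In hILO both input and IP were higher near the stop codon (7253 against 862 input reads per kb), whereas in hPSC, DE and PP the IP reads were higher downstream.

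In batch 2 WT PP held 2 SLC2A1 peaks of 50 nt each further along the 3UTR. The peak at chr1:42926253-42926302 had 113 input and 136 IP reads (2.73 ± 0.18), and that at chr1:42926153-42926202 had 49 and 196 (3.87 ± 0.23). A5-KO PP held peaks in both 3UTR regions of the stages, with 13 input and 25 IP reads near the stop codon (0.96 ± 0.49) and 0 and 45 downstream. The enrichment of 9.06 ± 2.05 in the last rests on no input read and gives no usable size. No SLC2A1 peak was shared between WT PP and A5-KO PP.

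SLC2A2 (GLUT2), a low-affinity transporter of islets and liver, had 2 peaks. In hILO a peak over the stop codon, chr3:170997797-170997971, held 4390 input and 8905 IP reads and a log2 enrichment of 1.57 ± 0.03. Its input level, 881 reads per kb per 1000000 input reads in peaks, was the highest of the 26 hILO peaks on these genes, and the next was ABCC8 at 377. The enrichment was ordinary, at the 52.7th percentile of the list. In A5-KO PP a peak over an exon junction in the CDS, chr3:170999079-171002587, held 35 input and 85 IP reads, with a value of 3.98 ± 0.29 at the 44.8th percentile. The liver markers ALB, AFP, APOA1, APOB and TTR also had peaks in hILO, and their part in the SLC2A2 reads was not tested.

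KCNJ11, the pore of the KATP channel, had the most peaks, 19 in 4 lists. In hPSC its 5 peaks held 2, 9, 19, 34 and 311 input reads, so that 4 of them had under 50. The deepest of these, chr11:17387009-17387208 in the CDS near the stop codon, held 311 input and 2574 IP reads at 1.43 ± 0.09. In hILO 4 peaks held 620 to 1158 input reads, with log2 enrichments from 0.60 ± 0.06 to 1.14 ± 0.07. The deepest, chr11:17386609-17386883 in the 3UTR, held 1158 input and 2290 IP reads at 0.80 ± 0.05. On the same scale, per kb and per 1000000 input reads in peaks, the input of the hPSC peak near the stop codon was 195 and that of the overlapping hILO peak in the CDS 66.9, although the hILO peak held more reads (857 against 311). This hILO peak, chr11:17386934-17387383, covered the printed CDS site and stood at the 0.246th percentile of its list.

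In WT PP the KCNJ11 peak across the stop codon, chr11:17386859-17387333, held 2853 input and 24181 IP reads at 4.63 ± 0.03, the most IP reads of the 77 peaks. In A5-KO PP the overlapping peak at chr11:17387059-17387408 held 9 input and 85 IP reads at 1.64 ± 0.49. The difference of A5-KO PP minus WT PP was -2.98 ± 0.49, and -0.38 when plain count ratios, each less its list median, replaced the authors' values. With input again per kb and per 1000000 input reads in peaks, this region was 156-fold lower in A5-KO PP (2.02 against 315.5), while an upstream region of the same gene was 2.09-fold higher (1084 against 518) and a peak early in the CDS 2.47-fold higher (359 against 145). The input thus differed in opposite directions along the gene. A gap of at least 100-fold towards lower input in A5-KO PP held for 12% of shared pairs with at least 50 input reads in WT PP, and one towards lower input in WT PP for 13.3% of those with at least 50 in A5-KO PP. With the limit at 16-fold, which takes in those pairs too, the shares were 21.9% and 27.2%.

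The upstream region of KCNJ11, chr11:17388534-17389177 with all lists merged, lies mostly on exons that the longest coding isoform does not use, though 126 of the 275 nt of its hILO peak are on the isoform. It held a peak in hPSC (19 input and 302 IP reads), hILO (620 and 1713), WT PP (2465 and 4485) and A5-KO PP (2413 and 3823). The pair of WT PP and A5-KO PP had similar reads, at 1.76 ± 0.04 and 1.42 ± 0.04, a difference of -0.33 ± 0.05 that was -0.61 with the plain count ratios. The CDS pair gave 2.37 ± 0.08 in WT PP (chr11:17387759-17387933, 483 input and 851 IP reads) and 2.67 ± 0.09 in A5-KO PP (chr11:17387809-17387883, 342 and 717), a difference of 0.30 ± 0.13. With the plain count ratios that difference turned to -0.16.

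ABCC8 (SUR1), the sulfonylurea receptor that regulates the channel, had 4 peaks in hILO and 3 in A5-KO PP. In hILO they held 57 input and 212 IP reads, 193 and 361, 805 and 3445, and 70 and 217. The deepest, chr11:17407126-17407200, gave 2.05 ± 0.06 at the 79.7th percentile. Their midpoints lay on exons outside the longest coding isoform, within annotated transcripts that retain introns or are marked for decay. The coding exons thus had almost no called bases in hILO. The A5-KO PP peaks spanned several exons, and their midpoints also lay outside the isoform. The deepest, chr11:17470128-17474965, held 465 input and 2112 IP reads at 4.84 ± 0.07, with 175 of its 516 nt on the isoform. Another held 105 and 188 reads with 172 of 304 nt on the isoform, and the last held 1 and 58. None of the hILO peaks overlapped an A5-KO PP peak.

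G6PC2, the islet glucose-6-phosphatase, had a single peak, in the last coding exon in hILO (chr2:168907852-168908026). It held 92 input and 202 IP reads at 1.22 ± 0.18. It was lost at the p below 1e-05 of the methods, which left 8 of 9 genes with a peak in hILO. Its input level of 18.5 reads per kb per 1000000 input reads in peaks was among the lowest of the hILO peaks on these genes.

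PCSK1 (PC1/3), which makes the first cuts in proinsulin, had 3 peaks in hILO and 1 in hPSC. The hPSC peak, chr5:96392958-96393107 over the stop codon, held 109 input and 1100 IP reads at 1.88 ± 0.14. The hILO peak over the same place, chr5:96392883-96394867 across 2 exons, held 1419 input and 1973 IP reads at 0.67 ± 0.05, the 1.99th percentile. Per kb and per 1000000 input reads in peaks, their input was 91.2 in hPSC and 99.7 in hILO, since the whole hILO list held more input reads (28463998 against 7970658) and its peak is longer (500 nt against 150). The other hILO peaks lay in the CDS, with 690 input and 1269 IP reads at 1.15 ± 0.07 and 273 and 664 at 1.78 ± 0.10.

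PCSK2 (PC2), which acts later in prohormone processing and takes part in making glucagon, had 3 peaks in hILO. The peak over the stop codon, chr20:17481825-17482349, held 4237 input and 12825 IP reads at 1.69 ± 0.03. The 5UTR peak held 404 and 1311 at 1.53 ± 0.08, and a 3UTR peak 1995 and 3978 at 1.16 ± 0.04. In A5-KO PP a peak over 8 exons held 0 input and 29 IP reads, and one in the CDS, chr20:17456361-17456435, held 175 and 157 at 2.28 ± 0.16. The latter had fewer IP than input reads, and in that list the authors' value exceeded the log2 ratio of the counts by a median of 2.58. No PCSK2 position was shared between hILO and A5-KO PP.

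CPE, which removes the basic residues left by the convertases, had a peak at its 5' end in every list, within chr4:165361219-165379264. The reads were 298 input and 2232 IP in hPSC, 335 and 566 in DE, 76 and 385 in PP, 344 and 842 in hILO, 32 and 113 in WT PP, and 11 and 111 in A5-KO PP. The log2 enrichments were 0.85 ± 0.09, 1.53 ± 0.10, 2.41 ± 0.18 and 1.59 ± 0.09 from hPSC to hILO. WT PP gave 1.30 ± 0.29, and A5-KO PP gave 6.05 ± 0.45 from its 11 input reads. PP was again the highest stage, as in the 5UTR of SLC2A1. The stretches differed, since some peaks began on an upstream exon outside the coding isoform and the hPSC peak lay nearer the start codon, so that no later CPE peak of this region was covered by more than 50% in the list before it. The WT PP peak lay inside the longer A5-KO PP peak and covered less than 50% of it. Near the stop codon CPE had a peak of 50 nt in DE (chr4:165497604-165497653, 688 input and 1016 IP reads, 2.39 ± 0.07) and a longer one in hILO (266 and 558, 1.36 ± 0.11). hILO also had a CDS peak, chr4:165487564-165495594, with 1265 input and 2991 IP reads at 1.53 ± 0.05.

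SLC30A8 (ZnT8), which carries zinc into insulin granules, had 14 peaks in 5 lists, DE excepted. Most lay in the long 3UTR. The region chr8:117173361-117174185 held peaks in hPSC (29 input and 491 IP reads, and 96 and 881), PP (38 and 131), hILO (285 and 437), WT PP (46 and 152) and A5-KO PP (4 and 37). The hPSC peaks gave 2.67 ± 0.27 and 1.80 ± 0.15, and the PP peak, at the same place as the second of them, 1.64 ± 0.26. In hILO the region gave 0.86 ± 0.11, while a CDS peak over 3 exons, chr8:117135382-117147006, held 966 and 4106 reads at 2.55 ± 0.05, the 95.5th percentile and the highest of the 26 hILO peaks on these genes. A shallower hILO peak nearer the stop codon in the 3UTR, chr8:117173036-117173235, held 34 and 127 reads at 2.34 ± 0.28, the 91.1th percentile. The fourth hILO peak, chr8:116951032-117007027, lay on exons outside the coding isoform and held 233 and 519 reads at 1.43 ± 0.11, the 43.4th percentile.

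In the knockout comparison SLC30A8 gave 2 shared pairs. The first, chr8:117173011-117173235 with hILO merged, held 8 input and 29 IP reads at 0.69 ± 0.56 in WT PP and 39 and 198 at 5.69 ± 0.25 in A5-KO PP, a difference of 5.00 ± 0.62. With the plain count ratios it was 0.17. The other pair gave 4.28 ± 0.24 and 4.35 ± 0.72, a difference of 0.07 ± 0.76 within the 95% counting range. With the plain count ratios it was 0.82, from 4 input reads in A5-KO PP. WT PP also had peaks with 258 input reads each at chr8:116950298-116950551 outside the coding isoform (2143 IP reads, 5.87 ± 0.09) and at chr8:117174236-117174410 in the 3UTR (457 IP reads, 3.67 ± 0.11), neither of them shared with A5-KO PP.

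The knockout comparison asked which peaks differ without ALKBH5. Of the 16 A5-KO PP peaks on these genes, 5 were shared with WT PP, where 46.8% of all A5-KO PP peaks were, and all 5 lay on KCNJ11 or SLC30A8. Of the 13 WT PP peaks 6 were found again, where 50% of all were. Of the 5 shared pairs, 1 was higher and 1 lower in A5-KO PP by at least 1. Among all shared pairs 38% were higher and 28.9% lower by that much (22.7% and 21.4% of those with at least 50 input reads in both), so a difference of that size is common between these lists, and both pairs had under 10 input reads in 1 of the lists. ABCC8, SLC2A2 and PCSK2 had a peak in A5-KO PP and none in WT PP, as 17.2% of the protein-coding genes with an A5-KO PP peak did, and the reverse held for none of the 9 genes (8.1% of those with a WT PP peak). At p below 1e-05 SLC2A2 and PCSK2 had no A5-KO PP peak left, while ABCC8 kept 2, and CPE had 1 in A5-KO PP and 0 in WT PP. Of the A5-KO PP peaks on these genes 11 of 16 had under 50 input reads and 3 had none, against 5 and 1 of 13 in WT PP. Mesenchyme markers with a peak numbered 4 of 4 in A5-KO PP and 2 of 4 in WT PP, and islet endocrine markers 4 of 7 and 3 of 7. Exocrine markers numbered 0 of 3 in A5-KO PP and 2 of 3 in WT PP, liver 3 of 5 and 4 of 5, and neural 1 of 3 and 2 of 3. Gut markers numbered 2 of 2 in both. Of all protein-coding genes, 69.7% had a peak in A5-KO PP and 62.8% in WT PP. The part of these cell types in the peaks was not tested.

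**Figure D4:**
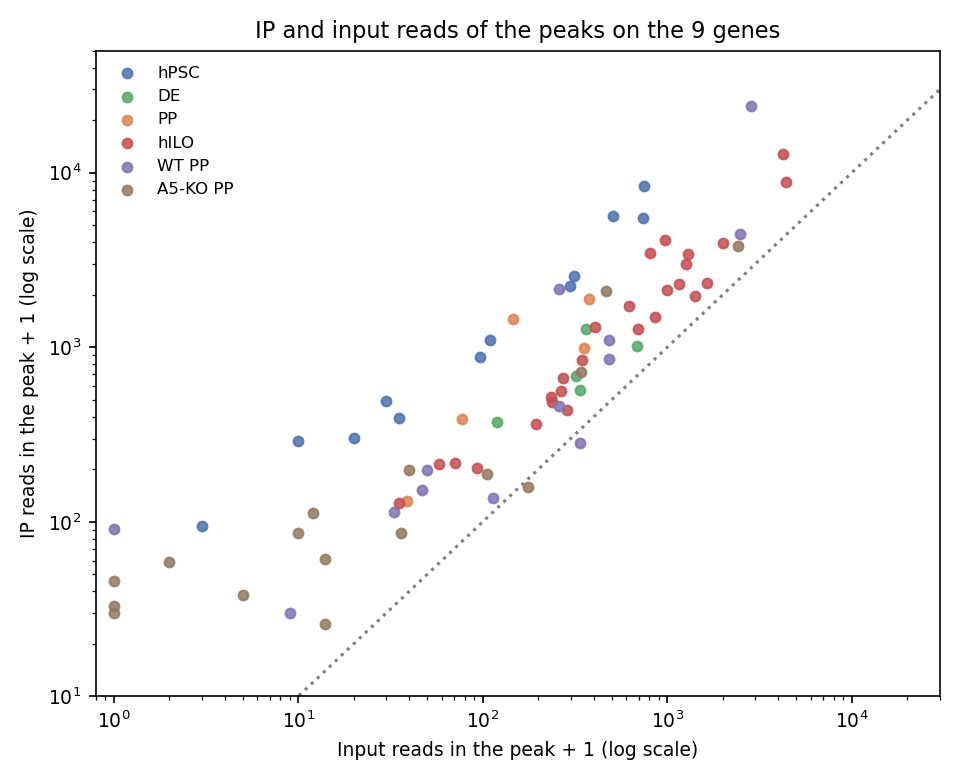
IP reads against input reads of the 77 peaks, each plus 1, on log axes; each point is 1 peak, coloured by population, and the dotted line marks equal numbers. The hILO points lie mostly above 100 input reads, whereas 11 of the 16 A5-KO PP points lie below 50.

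The enrichment of the 12 hPSC peaks on these genes had a median percentile of 60.2 within its list, and that of the 26 hILO peaks 37.8. DE stood at 62.4 and PP at 50.4, with 5 peaks each. The middle peak was on SLC2A1 for DE and on SLC30A8 for PP. WT PP (13 peaks) stood at 32.9 and A5-KO PP (16 peaks) at 28.3. The genes with a peak differed between stages, from 2 of 9 for DE to 9 of 9 for hILO. These medians therefore do not follow the same peaks from stage to stage. The median input was 655 reads for the 26 hILO peaks against 302 for all hILO peaks.

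Other genes of glucose sensing and hormone processing were counted from a list of 34. Of these, hPSC had peaks on 27 (60.2% of all protein-coding genes), DE on 19 (57%), PP on 13 (52.2%) and hILO on 25 (57.7%), and WT PP had them on 25 (62.8%) and A5-KO PP on 27 (69.7%). PP thus had the fewest in this list, while among the 9 genes DE had. From PP to hILO 13 of the 34 had a peak in hILO and not in PP, as 10.8% of all protein-coding genes did, and 1, the muscle phosphofructokinase PFKM, the reverse (5.27% of all). Of the 13, CACNA1A, a calcium channel subunit, had 8 peaks with 2258 input and 6148 IP reads in hILO. PAM, which amidates peptide hormones, had 1319 and 2986 reads in 3 peaks, and SCG5 (7B2), the chaperone of PCSK2, had 763 and 1572 in 1 peak. The incretin receptor GIPR had 3 peaks, the oxidoreductase ERO1B 1, the carboxypeptidase CPZ 2 and the phosphofructokinase PFKP 2. Each of the genes named so far from the 13 also had a peak in hPSC or DE. G6PC1, the glucose-6-phosphatase of liver and kidney, named after its values were seen, had 2 peaks in hILO (414 input and 1230 IP reads) and none at the earlier stages.

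For the 4 genes with peaks in at least 4 lists, the genes with the most similar pattern were sought among 16403, by the sum over the 6 lists of the absolute difference in log2 of the gene's IP reads per 1000000 IP reads in peaks, plus 1. NOLC1 (2.06) and NFE2L3 (2.67) were nearest to SLC2A1, and DYNLL1 (2.33) and ZNF892 (2.58) to CPE. KCNJ11 had more distant neighbours, TMEM229B (4.07) and ATRAID (4.11), as had SLC30A8, with CASTOR2 (3.96) and LRP1 (4.01).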

How the data were processed

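Reads were trimmed with fastp and aligned with HISAT2 (GRCh38), and peaks were called with exomePeak2, with 1 list per population. The authors deposited for every peak the read counts of IP and of input, pooled in a manner not stated, the log2 enrichment of IP over input and p-values before and after adjustment. The lists were scaled separately, and the authors' log2 enrichment departs from the count ratio by an offset that differs between lists, so differences between lists compare separately scaled values.

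Peaks were assigned to the 9 genes by identifier, reduced to exons of GENCODE 44 and placed by midpoint on the longest coding isoform, which is the MANE Select isoform for each gene but ABCC8. The counting error was computed from both counts with 0.5 added, taking them as sums, and the 95% counting range is 1.96 errors. Peaks were shared when peaks of the other list on that strand covered more than 50% of the exonic length, and a difference of at least 1 on the log2 scale was called. Counts per library were not used here, so nothing was tested between populations. The members and gene lists were chosen with earlier results of these data known. Each member is named; of each, the peak with the most input reads in a list or shared between lists is given with its own position or that of its merged region, its reads and its log2 enrichment. Of the pathway list, genes with a peak in only 1 of PP and hILO are named, at most 8 by input reads, of which 1 is not reported here. The exonic length, placement and overlap of peaks were tested on simulated data. Motifs were read from hg38 on the transcript strand. Python 3.11.15, pandas 2.3.3, numpy 2.4.6, pysam 0.24.0 and matplotlib 3.10.9 were used. Coordinates are 1-based.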

Additional observations from a re-analysis of the deposited data

How the results depend on the processing

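Of 105 counts recomputed with another setting, 85 stayed within 1.5 times the reported count. With an IP over input of at least 3, the members with a peak in hILO were 5 and their peaks 7, and the peaks in DE were 3. At p below 1e-05 the members with a peak numbered 2 for WT PP and 4 for A5-KO PP, on 8 and 6 peaks. At p below 1e-10 they were 2 and 2, with 4 and 2 peaks, and the peaks were 6 in hPSC and 3 in PP. With at least 10 input reads A5-KO PP kept 10 peaks. The members with a peak in hILO were within 1.5 times the 9 reported under the p and input settings. Counting any overlap, 5 hILO peaks were shared with PP. The 2 differences of at least 1 between A5-KO PP and WT PP became 0 with at least 10 or at least 50 input reads in both lists, and 0 with plain count ratios at either pseudocount. The 1 between hILO and PP became 0 relative to the median difference of all shared pairs, a setting chosen after seeing the data, as was placement on the MANE Select isoform. The cause of these changes was not tested. Of the differences of single pairs, 23 of 42 recomputed values moved by more than 1 counting error, and the KCNJ11 CDS pair turned negative with plain count ratios. No paired analysis was possible because each list pools its libraries, and leaving out a replicate was not run for the same reason. The peaks of A5-KO PP on these genes had a median of 13 input reads, and the part of depth in their values was not tested.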
